A study of Canis lupus familiaris with 18 samples.

Results

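The comparison described here is that of canine primary endothelial cells (CaPECs) with vascular smooth muscle cells (VSMCs) from one vessel, the abdominal vena cava. It was defined by the sample labels alone, which gave 3 CaPEC libraries and 3 VSMC libraries, 6 of the 18 libraries in the series. The other 12 libraries came from the aorta and the vena porta, with 3 of each cell type per vessel. Polyadenylated RNA of cells at passage 3 was sequenced, and the authors deposited raw read counts per gene. All vessels came from 3 healthy male dogs a little over a year old, as surplus material from unrelated pacemaker research, so that each group of 3 stands for 1 culture per dog. CaPECs were released first from the inverted vessel by a short digestion and were grown on gelatin in a canine endothelial medium. VSMCs were released afterwards by a longer digestion of the minced wall and were grown in DMEM with fetal calf serum. Cell type and culture medium therefore cannot be told apart in these data. Both cell types came from these dogs, but their libraries carry different sample numbers in the deposited column names, so the cell types were compared without pairing.

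Endothelial cells form the inner lining of the vessel, where they make a barrier to the blood, control clotting and the passage of leukocytes, and sprout to form new vessels. Smooth muscle cells lie in the wall beneath them, contract to set the vessel's diameter, and produce much of the extracellular matrix. The vena cava returns blood to the heart at low pressure, and its wall holds less smooth muscle than that of the aorta. In culture, smooth muscle cells commonly shift from a contractile toward a proliferating, matrix-producing state.

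The table lists 24580 genes by Ensembl identifier only, and 0 of these matched the gene table at hand. Genes are therefore given by identifier without symbol, function, or length, and neither the labelled cell types nor the presence of other cells, such as fibroblasts, could be checked against marker genes. Of the 24580 genes, 8921 had no count in any of the 6 libraries, and 11421 passed the filter on low counts and were tested. Total counts ranged from 7602808 to 9858752 in the CaPEC libraries and from 8050903 to 15746769 in the VSMC libraries. The 100 genes with the most counts held 33.0% to 35.7% of all counts in CaPECs and 38.9% to 45.4% in VSMCs.

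The 3 CaPEC cultures were less alike than the 3 VSMC cultures. Over the genes tested, the correlation of log2 CPM (counts scaled to library size) between VSMC libraries was 0.940 to 0.965, and the correlation between CaPECs 1 and 3 was 0.949. CaPEC 2 correlated at 0.854 with CaPEC 1 and at 0.866 with CaPEC 3, which was close to the 0.825 to 0.868 found between a CaPEC and a VSMC library. CaPEC 2 differed by more than 2-fold from CaPEC 1 in 2780 genes and from CaPEC 3 in 2483, against 1359 genes between CaPECs 1 and 3. Between VSMC libraries the numbers were 924 to 1412. These correlations are descriptions across genes, which are not independent, and the libraries of a group share the cell type and the medium.

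CaPEC 2 of the vena cava also resembled libraries of another vessel more than those of its own. With all 18 libraries on one scale, it correlated at 0.934 to 0.951 with the 3 vena porta CaPEC libraries and at 0.884 to 0.920 with the 3 aortic ones, and at 0.867 and 0.871 with vena cava CaPECs 1 and 3. CaPECs 1 and 3 correlated with each other at 0.951 and with every CaPEC library of the other vessels at 0.818 to 0.906. The label of CaPEC 2 was kept, and the counts of genes called are given with and without it. With every CaPEC library of the other vessels, CaPEC 2 correlated more highly than CaPECs 1 and 3 did. Counts without CaPEC 2 therefore rest on the vena cava CaPECs least like those of the other vessels. Why CaPEC 2 differed from CaPECs 1 and 3 was not tested.

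In a principal component analysis of the 500 most variable genes, the first and second components took up 65.1% and 23.1% of the variance. Cell type as a grouping explained 64.3% of it. On the first component, CaPECs lay at 52.7, 35.1, and 41.1 and VSMCs at -42.9, -45.4, and -40.6 (cultures 1 to 3 in each case). The cell types did not overlap there, and the VSMCs lay close together. The second component held CaPEC 2 at 53.7, the other CaPECs at -23.7 and -22.9, and the VSMCs between -4.94 and -1.02.

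**Figure D1:**
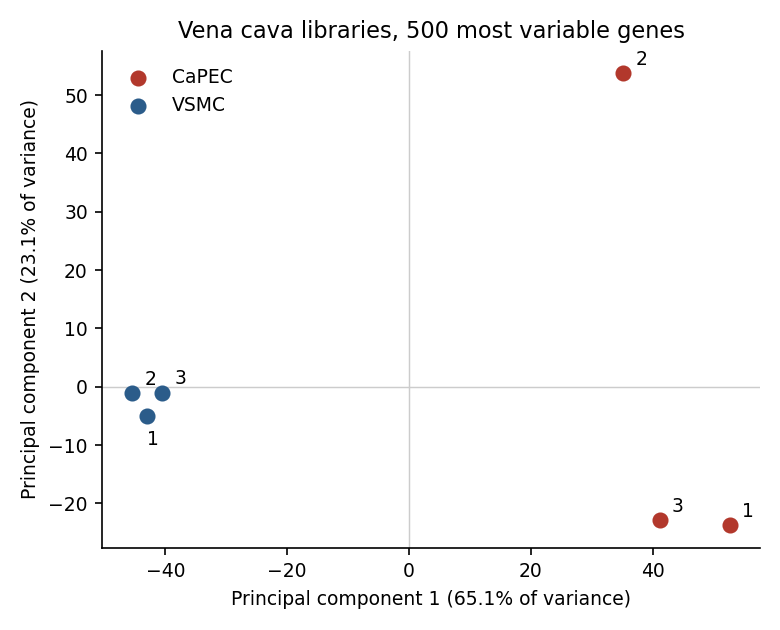
Scores of the 6 vena cava libraries on the first (x axis) and second (y axis) principal component of log2 CPM over the 500 most variable genes, with the culture number beside each point. CaPECs (red) and VSMCs (blue) are apart on the first component, and CaPEC 2 at 53.7 is apart from all other libraries on the second.

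CaPECs and VSMCs of the vena cava were then compared gene by gene with edgeR's quasi-likelihood test. A gene was called when its Benjamini-Hochberg adjusted p-value was below 0.05 and its absolute log2 fold change above 0.4. The test called 475 of the 11421 genes (4.16%). Of these, 174 were higher in CaPECs (1.52% of the genes tested) and 301 were higher in VSMCs (2.64%). Before adjustment, 2336 genes had a p-value below 0.05. Without CaPEC 2, 1287 genes were called, with 629 higher in CaPECs and 658 in VSMCs, and all 475 were among them.

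The median log2 fold change was 2.27 in the 174 genes higher in CaPECs and -2.32 in the 301 genes higher in VSMCs, and the median absolute log2 fold change over all genes tested was 0.34. The difference exceeded 4-fold in 100 of the genes higher in CaPECs and in 170 of those higher in VSMCs, and it exceeded 16-fold in 50 and 83, respectively. Without CaPEC 2 the order was the other way, with 343 and 298 genes beyond 4-fold and 207 and 127 beyond 16-fold. The extremes were log2 fold changes of 11.2 and -10.9. In all 475 genes, the 3 CaPEC libraries and the 3 VSMC libraries did not overlap, while groups without overlap were found in 28.2% of all genes tested. A further 411 genes differed by more than 4-fold without being called, 249 of them with the higher mean in CaPECs and 162 with the higher mean in VSMCs, and without CaPEC 2 these numbers were 129 and 172.

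**Figure D2:**
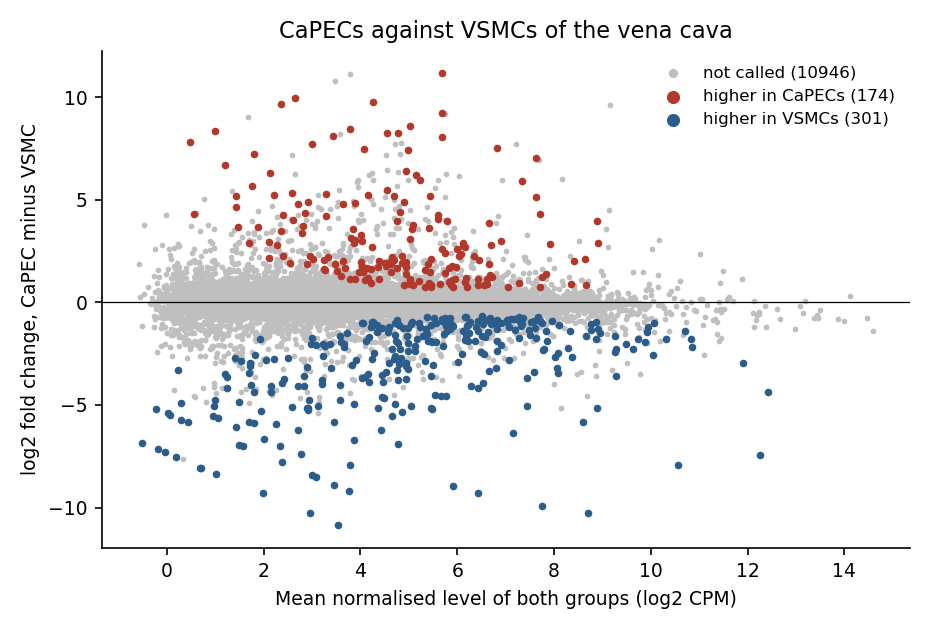
Log2 fold change between CaPECs and VSMCs of the vena cava (y axis, positive when higher in CaPECs) against the mean normalised level of both groups (x axis, log2 CPM) for the 11421 genes tested. The 174 genes called higher in CaPECs are red, the 301 called higher in VSMCs are blue, and many grey genes with a large difference were not called.

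Calls in each direction were also counted by level, taken as the mean normalised CPM of both groups. At a mean level of 100 CPM or more, 85 of 1669 genes (5.09%) were called higher in VSMCs, as against 23 (1.38%) called higher in CaPECs. Between 10 and 100 CPM, 144 of 6394 genes (2.25%) were called higher in VSMCs, as against 113 (1.77%) in CaPECs. Between 1 and 10 CPM the numbers were 68 (2.07%) and 38 (1.16%) of 3285 genes, and under 1 CPM they were 4 and 0 of 73. Without CaPEC 2, genes higher in VSMCs outnumbered those higher in CaPECs at 100 CPM or more, with 202 (12.1%) against 96 (5.77%) of 1663, and under 1 CPM, with 11 against 4 of 237, and not from 10 to 100 CPM, with 318 against 351, or from 1 to 10 CPM, with 127 against 178. The 301 genes higher in VSMCs held 7.07% to 8.83% of all counts in the VSMC libraries and 1.71% to 2.22% in the CaPEC libraries. The 174 genes higher in CaPECs held 1.60% to 1.83% of all counts in the CaPEC libraries and 0.292% to 0.381% in the VSMC libraries. Without CaPEC 2, the 658 genes higher in VSMCs held 22.95% to 24.98% of the counts in VSMCs, and the 629 genes higher in CaPECs held 8.31% and 9.24% in CaPECs 3 and 1. These levels are scaled to library size and not to gene length, so that a long gene counts for more.

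The 100 most abundant genes by mean normalised CPM had 68 genes in common between the cell types. The other 32 genes of the VSMC list included 14 called higher in VSMCs, while the other 32 of the CaPEC list included 2 called higher in CaPECs. Among the 68 common genes, 2 were called higher in VSMCs and 0 higher in CaPECs. Without CaPEC 2, 70 genes were common, and of the other 30 in each list, 25 of the VSMC list and 13 of the CaPEC list were called higher in their own cell type.

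A small number of genes were counted in only one of the cell types in the vena cava. In 7 genes, all 3 VSMC libraries had 0 counts while each CaPEC library had at least 10, with 11 to 465 counts per CaPEC library. Set against a limit of 3 counts over the 3 VSMC libraries, these genes were at least 33.1-fold to 330-fold higher in CaPECs (median 126), a bound that covers counting error only. In the VSMC libraries of the aorta and vena porta, 3 of the 7 had no count either, and the highest count there was 95. In the CaPEC libraries of these vessels, 5 of the 7 had 0 counts in at least 1 library, and 1 of the 7 had 10 or more counts in every library. In 12 genes, all 3 CaPEC libraries had 0 counts and each VSMC library had 10 to 345. These were at least 13.2-fold to 174-fold higher in VSMCs (median 30.9), and 6 of the 12 had no count in the CaPEC libraries of the other vessels, where the highest count was 13. In the VSMC libraries of these vessels, 2 of the 12 had 0 counts in at least 1 library, and 5 had 10 or more counts in every library. The test called 4 of the 7 genes and 9 of the 12. With CaPECs 1 and 3 alone, 54 genes were counted in CaPECs and not in VSMCs by the same count limits, and 24 in VSMCs and not in CaPECs. Fewer libraries then had to meet the limits, so these numbers could not fall below 7 and 12.

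Ranked by p-value, the first 12 genes higher in CaPECs showed log2 fold changes from 1.73 to 7.05 (median 3.19), with adjusted p-values from 0.0024 to 0.0138 in edgeR's test. In the same comparison, 11 of the 12 were called in the same direction in the aorta and 1 in the opposite one, and 10 were called in the same direction in the vena porta, where 15.6% and 10.5% of all genes tested were called higher in CaPECs. The first 12 genes higher in VSMCs showed log2 fold changes from -10.3 to -1.41 (median -8.70) and adjusted p-values from 0.0016 to 0.0119. Of these, 9 of the 11 tested in the aorta and 11 of the 12 tested in the vena porta were called in the same direction there, where 14.4% and 11.3% of all genes tested were called higher in VSMCs. The first 2 genes of each ranking are given with their values below.

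ENSCAFG00000014752 was at 463.5, 303.4, and 429.4 normalised CPM in CaPECs 1 to 3 and at 19.3, 18.6, and 22.5 in VSMCs 1 to 3. All CaPEC libraries were far above all VSMC libraries, with CaPEC 2 the lowest of its group. The means were 398.8 ± 84.4 and 20.1 ± 2.10 (SD, n = 3 each), and the log2 fold change was 4.31 ± 0.23 (standard error), with an adjusted p = 0.0024 from edgeR. ENSCAFG00000013243 was at 24.5, 30.9, and 32.4 normalised CPM in CaPECs and at 2.97, 3.29, and 2.87 in VSMCs. CaPEC 2 lay between the other CaPECs in this gene. Its log2 fold change was 3.26 (standard error 0.23, adjusted p = 0.0033 from edgeR), and the VSMC values rest on 19 to 44 reads.

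ENSCAFG00000007609 was at 1.57, 1.95, and 1.54 normalised CPM in CaPECs, which are 13, 20, and 17 reads, and at 42.6, 41.7, and 45.6 in VSMCs. Both groups were narrow and far apart, and the log2 fold change was -4.67 ± 0.21 (standard error), with an adjusted p = 0.0016 from edgeR. ENSCAFG00000018598 had 0, 3, and 4 reads in CaPECs 1 to 3 and 2247, 997, and 677 reads in VSMCs. On the normalised scale the VSMCs were at 151.4, 105.9, and 102.3 CPM and no CaPEC library was above 0.362. Its log2 fold change was -8.93 (standard error 0.53, adjusted p = 0.0027 from edgeR). Without CaPEC 2, the log2 fold changes of the 4 genes were 4.47, 3.22, -4.79, and -9.11 in the order given, all called.

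The number of genes called depended strongly on single libraries, whichever group they belonged to. It fell to 93 without CaPEC 1 and to 149 without CaPEC 3, and rose to 1287 without CaPEC 2. It fell to 18 without VSMC 1, to 21 without VSMC 2, and to 24 without VSMC 3. Of the calls made without a VSMC library, all were among the 475. The number at an unadjusted p-value below 0.05 moved less, from 1730 without VSMC 3 to 3066 without CaPEC 2. The spread between libraries, as the biological coefficient of variation, was 0.460 in CaPECs and 0.266 in VSMCs. The CaPEC value includes CaPEC 2, and it is not given without it. CaPECs 1 and 3 correlated at 0.949, within the range of the VSMC pairs, 0.940 to 0.965.

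**Figure D3:**
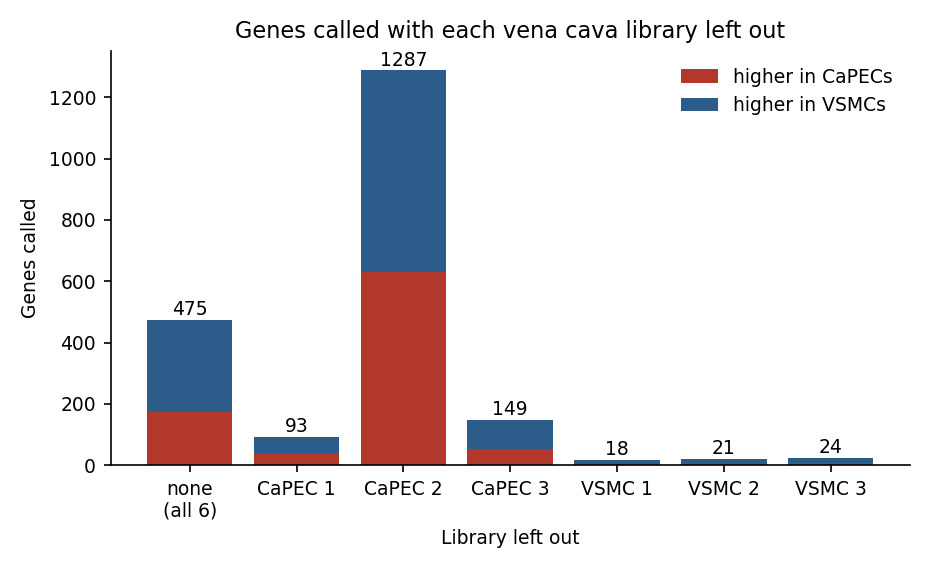
Number of genes called (y axis) with all 6 vena cava libraries and with each library left out in turn (x axis), split into genes higher in CaPECs (red) and higher in VSMCs (blue). The number was 475 with all libraries, 1287 without CaPEC 2, and between 18 and 149 without any other library.

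Of the 812 genes called only without CaPEC 2, 455 were higher in the other CaPECs and 357 were higher in VSMCs. CaPEC 2 lay within the range of the VSMC libraries in 212 of the 812 genes and beyond it, on the side away from CaPECs 1 and 3, in 121. It lay between the VSMCs and the other CaPECs in 312, within the range of the other CaPECs in 33, and further from the VSMCs than both of them in 134. These genes were selected by leaving CaPEC 2 out, so its place in them is a description only.

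The same comparison was made in the aorta and in the vena porta, whose libraries had no part in the vena cava test, though they came from the same study's dogs. It called 3419 of 11389 genes in the aorta (30%) and 2467 of 11333 in the vena porta (21.8%). The median absolute log2 fold change over the genes tested was 0.34 in the vena cava, 0.49 in the aorta, and 0.45 in the vena porta. The biological coefficient of variation in CaPECs was 0.460 in the vena cava with CaPEC 2 included, 0.304 in the aorta, and 0.342 in the vena porta. In VSMCs it was 0.262 to 0.266 in all vessels. Among the genes that differed by more than 4-fold, 39.6% were called in the vena cava, 90.6% in the aorta, and 83.5% in the vena porta. Without CaPEC 2, that share was 68.0% in the vena cava, and 10.9% of 11795 genes were called.

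Most genes called in the vena cava differed in the same direction in the other vessels. For comparison, 15.6% of all genes tested in the aorta were called higher in CaPECs and 14.4% higher in VSMCs. In the vena porta these rates were 10.5% and 11.3%. The share with the same sign over all genes is not given here. Of the 174 genes higher in vena cava CaPECs, 162 were tested in the aorta, where 158 had the same sign, 124 were called in the same direction (76.5%), and 1 in the opposite one, and 158 were tested in the vena porta, where 154 had the same sign, 120 were called in the same direction (75.9%), and 0 in the opposite one. Of the 301 genes higher in vena cava VSMCs, 286 were tested in the aorta, where 270 had the same sign, 225 were called in the same direction (78.7%), and 7 in the opposite one. In the vena porta 289 were tested, where 281 had the same sign, 211 were called in the same direction (73.0%), and 0 in the opposite one. The genes shared with the vena cava were 6.96% of all genes higher in aortic CaPECs and 13.7% of those higher in aortic VSMCs. For the vena porta these shares were 10.1% and 16.5%. In all 3 vessels, 288 genes were called, 100 of them higher in CaPECs throughout and 184 higher in VSMCs throughout. Without CaPEC 2, these numbers were 482, 159, and 307. Of the 629 genes then higher in vena cava CaPECs, 499 were tested in the aorta and 472 in the vena porta. Among those tested, 55.9% and 42.4% were called in the same direction. Of the 658 genes higher in VSMCs, 635 were tested in the aorta and 638 in the vena porta, and 64.1% and 55.2% of these were called in the same direction. Among the genes tested in the aorta, 86.0% of those higher in CaPECs and 86.9% of those higher in VSMCs had the same sign. In the vena porta these shares were 77.8% and 85.7%. Called in the opposite direction were 11 and 24 genes in the aorta and 15 and 13 in the vena porta.

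**Figure D4:**
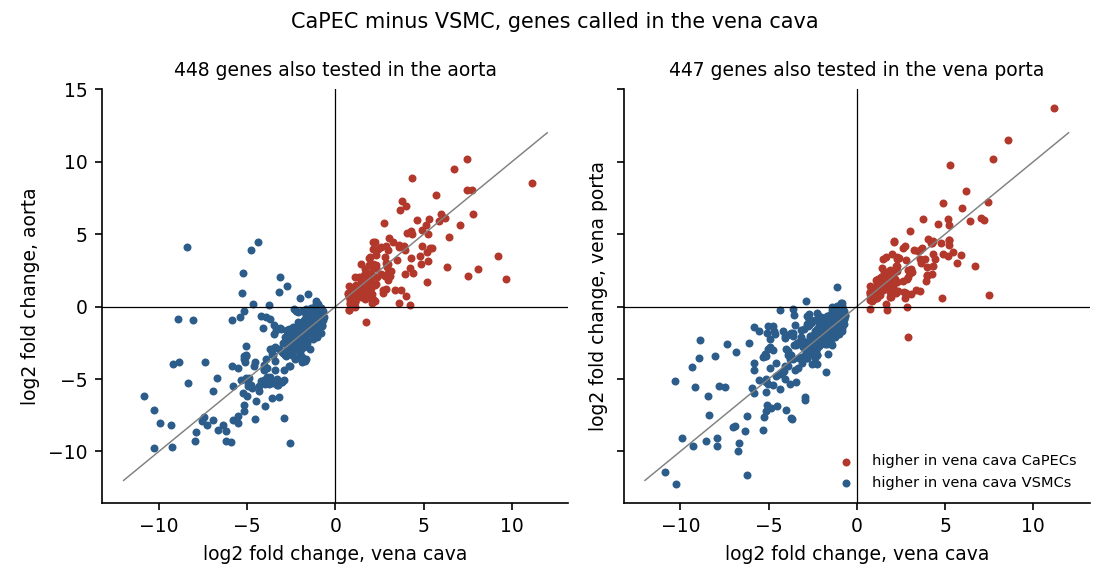
Log2 fold change between CaPECs and VSMCs in the aorta (left, 448 genes) and the vena porta (right, 447 genes) on the y axes against that in the vena cava on the x axes, for the vena cava calls also tested in the other vessel. Genes higher in vena cava CaPECs (red) and VSMCs (blue) mostly keep their sign, and a group of blue genes lies above 0 in the aorta.

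A call in the vena cava alone does not show that the vena cava differs. For 75 of the 475 genes no call was made in the other vessels, 29 of them higher in CaPECs. Of the 75 genes, 52 were tested in both other vessels, 8 in 1 of them, and 15 in neither. Only 2 of the 75 passed a test of the difference itself. Without CaPEC 2, 468 genes were called in the vena cava alone, 289 of them higher in CaPECs and 126 not tested in either other vessel, and 161 of the 468 passed that test. The test asked, over all 18 libraries and 12288 genes, whether the difference between CaPECs and VSMCs was larger or smaller in the vena cava than in another vessel. The aorta and vena porta tests share the vena cava libraries. Against the aorta, 103 genes (0.838%) had a different cell type difference (adjusted p-value below 0.05, edgeR), and the change was toward CaPECs in the vena cava in 51 and toward VSMCs in 52. The median absolute change was 2.26 on the log2 scale. In 90 of the 102 genes tested in both vessels, the absolute fold change was smaller in the vena cava than in the aorta, and in 12 it was larger. Over all genes tested, the median absolute log2 fold change was also smaller in the vena cava, at 0.34 against 0.49. The share of all genes with a smaller change was not counted. Of the 102 genes, 85 were called in the aorta alone, 5 in the vena cava alone, and 12 in both, 7 of these with opposite signs. Comparing group means, CaPECs moved more than VSMCs between the vessels in 92 of the 103 genes. The same count over all 12288 genes is not given here, so 92 cannot be set against a background. With the sample numbers within each cell type as a block, 129 genes were called, which included 76 of the 103. Spread was also larger in CaPECs, and the test used one dispersion per gene for all groups.

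Against the vena porta, 5 genes (0.0407%) had a different cell type difference by the same test, 4 of them toward CaPECs in the vena cava and 1 toward VSMCs. The changes ranged from -6.53 to 6.12 on the log2 scale. Within a cell type, the column names carry the same sample numbers in every vessel, and with these numbers as a block 13 genes were called, including 4 of the 5. Both tests depended on CaPEC 2. Leaving it out keeps CaPECs 1 and 3, which correlated less than CaPEC 2 with every CaPEC library of the other vessels. Without CaPEC 2, 923 genes had a different cell type difference against the aorta, 437 toward CaPECs and 486 toward VSMCs. Against the vena porta there were 800 such genes, 439 toward CaPECs and 361 toward VSMCs. The absolute fold change was smaller in the vena cava in 77.8% and 70.7% of those tested in both vessels. Over all genes tested, its median on the log2 scale was 0.37 in the vena cava without CaPEC 2. It was 0.49 in the aorta and 0.45 in the vena porta. Without any other vena cava library, the number was 32 to 84 against the aorta. It was 43 without CaPEC 1, 84 without CaPEC 3, 56 without VSMC 1, 32 without VSMC 2, and 53 without VSMC 3. Against the vena porta it was 0 without CaPEC 1, 2 without CaPEC 3, 1 without VSMC 1 or VSMC 2, and 3 without VSMC 3. For the count of 0 from edgeR, 983 genes had an unadjusted p-value below 0.05, and DESeq2 was not run without CaPEC 1.

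The 4 genes named above were followed across vessels, and 1 of the 8 tests of a difference from the vena cava passed. On the scale of all 18 libraries, ENSCAFG00000014752 was at 161 to 370 normalised CPM in aortic CaPECs and at 171 to 416 in those of the vena porta, against 18.1 to 23.8 in the VSMCs of these vessels. The log2 fold change was 3.36 (standard error 0.32) in the aorta and 3.66 (standard error 0.36) in the vena porta, both called, and neither test of the difference from the vena cava passed (adjusted p = 0.34 and 0.63 from edgeR). ENSCAFG00000013243 had log2 fold changes of 4.48 (standard error 0.71) in the aorta and 3.89 (standard error 0.29) in the vena porta, both called, and the tests of the difference did not pass (adjusted p = 0.44 and 0.76 from edgeR).

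ENSCAFG00000007609 was low in CaPECs of the vena cava and not in those of the aorta. On the scale of all 18 libraries, aortic CaPECs 1 to 3 were at 43.2, 47.4, and 17.99 normalised CPM and vena porta CaPECs at 9.72, 16.8, and 4.59, while vena cava CaPECs were at 1.45 to 1.84. VSMCs were at 23.3 to 47.8 in all vessels. The log2 fold change between the cell types was 0.19 (standard error 0.40, adjusted p = 0.75 from edgeR) in the aorta and -1.72 (standard error 0.43, adjusted p = 0.027) in the vena porta. The difference from the vena cava was -4.86 (standard error 0.63, adjusted p = 0.0035 from edgeR) for the aorta and -2.96 (standard error 0.62, adjusted p = 0.10) for the vena porta.

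ENSCAFG00000018598 had its lowest VSMC values in the aorta. Aortic VSMCs were at 18.7, 9.48, and 16.2 normalised CPM, below all venous VSMCs, which were at 96.4 to 143.3 in the vena cava and at 55.6 to 175.2 in the vena porta. CaPEC 2 of the aorta was at 25.4 and CaPEC 2 of the vena porta at 27.2, while CaPECs 1 and 3 of both vessels had 0 reads and vena cava CaPEC 2 was at 0.275. These CaPEC cultures 2 carry the same sample number in the column names. The log2 fold change was -0.86 (standard error 1.46) in the aorta and -3.54 (standard error 1.54) in the vena porta, neither called, and the tests of the difference from the vena cava did not pass (adjusted p = 0.17 and 0.48 from edgeR).

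**Figure D5:**
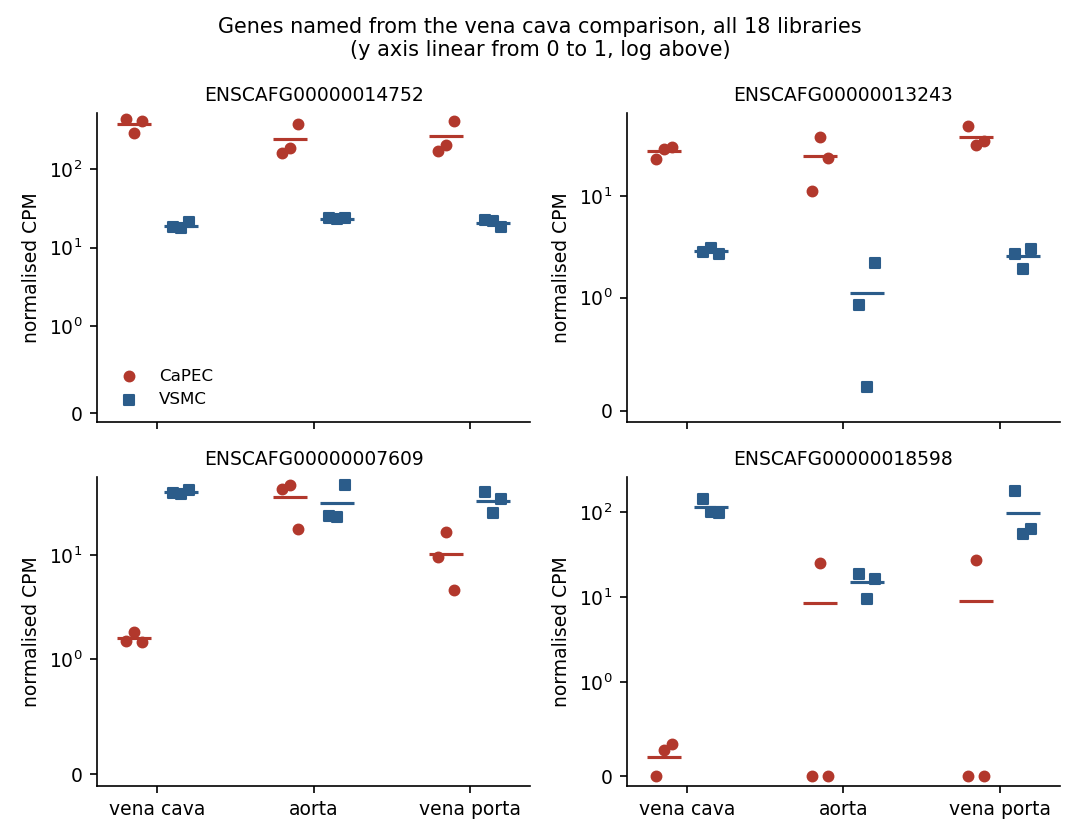
Normalised CPM (y axes, linear from 0 to 1 and logarithmic above) of the 4 genes named from the vena cava comparison in all 18 libraries by vessel (x axes), with CaPECs as red circles, VSMCs as blue squares, and a line at each group mean. ENSCAFG00000007609 is low in vena cava CaPECs and overlaps between the cell types in the aorta, and ENSCAFG00000018598 has 1 high CaPEC library in the aorta and 1 in the vena porta.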

How the data were processed

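Per the labels and the study's methods, the authors aligned single-end reads of 75 bases to canFam3 with STAR 2.4.2a and obtained counts per gene with HTSeq-count 0.6.1p1 in union mode. They deposited raw counts for all 18 libraries without normalization. The annotation release and the strand setting are not given in the sources used here, so overlapping or near-identical genes are uncertain. From these counts, genes were tested with edgeR 4.0.16 (R 4.3.3; TMM, filterByExpr with a minimum count of 10, glmQLFit, and glmQLFTest), with 6 libraries for the vena cava and 18 for the differences between vessels, and DESeq2 1.42.0 was an alternative. The thresholds follow the study's, with the p-value adjusted by the Benjamini-Hochberg method. Standard errors were derived from the F statistic. Normalised CPM used TMM factors of the 6 libraries, or of all 18 where stated. Log2 CPM for principal components and correlations used a prior count of 2. The tests were also run on simulated counts with a log2 fold change of 2 set in 200 genes, and the outcome is not reported here. The simulation gave all groups one dispersion per gene and set no culture apart, so it does not cover the spread seen in CaPECs.

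Libraries were grouped by their titles. P-values measure the spread between cultures of 3 dogs. Same-numbered CaPEC and VSMC cultures did not deviate together (correlations across genes of 0.184, -0.009, and -0.109). Within a cell type, the same numbers recur in every vessel in the column names. The deviations of same-numbered vena cava and other cultures correlated at 0.098 to 0.468 in VSMCs and at -0.281 to 0.215 in CaPECs. The comparison, gene lists, and tests were chosen with earlier results of these data known. Genes were to be named from lists of symbols, and since 0 identifiers matched (assembly UU_Cfam_GSD_1.0), only the first 2 identifiers by p-value in each direction, without overlap between groups, were named, and the lists were not analysed here.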

Additional observations from a re-analysis of the deposited data

Results flagged for a closer look

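The difference between CaPECs and VSMCs itself differed between vessels, by a test of that difference, in 103 genes for the vena cava against the aorta and in 5 genes for the vena cava against the vena porta, by edgeR (adjusted p-value below 0.05). In both tests together, 3 genes were shared. With DESeq2's Wald test the numbers were 455 and 198, and without vena cava CaPEC 2 in edgeR they were 923 and 800. The last 2 numbers rest on vena cava CaPECs 1 and 3, which were less like the CaPECs of the other vessels than CaPEC 2 was.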

How the results depend on the processing

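Of the 17 alternatives to the vena cava comparison, 6 gave a number of genes within 1.5 times 475, including DESeq2's size factors, no filter and a stricter filter on low counts, and libraries thinned to the smallest total, a choice made after the data were seen. DESeq2's Wald test called 1275 genes, including all 475, and a fit of all 18 libraries with one dispersion called 1443, including 454 of the 475. An adjusted p-value below 0.1 without a fold threshold gave 991. With the replicate number as a block across cell types, which the numbers do not pair, edgeR called 242 genes and DESeq2 1147. With single libraries left out, the number was 18 to 1287. For the difference between vena cava and aorta, DESeq2 called 455 genes, the replicate block gave 119 across cell types and 129 within them, and leaving out single vena cava libraries gave 32 to 923. For the difference between vena cava and vena porta, no filter gave 8 genes, DESeq2 198, the replicate block 2 across cell types and 13 within them, and leaving out single libraries 0 to 800. Fewer libraries leave fewer residual degrees of freedom, and other causes were not tested. The 4 named genes kept their direction and call in all 60 refits of the vena cava comparison, with adjusted p-values of at most 0.043. They were chosen by their p-values in the same libraries, so this was favoured by the choice and is a description only. Gene lists could not be tried without symbols. Low genes rest on few reads in the smaller libraries.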
